A study of Mus musculus with 24 samples.

Results

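The genes described here were 10 genes that move or bind zinc: 5 zinc importers (Slc39a12, Slc39a14, Slc39a8, Slc39a10 and Slc39a6), 2 zinc exporters (Slc30a1 and Slc30a3) and 3 metallothioneins (Mt1, Mt2 and Mt3). They were chosen by gene name, and each of the 10 had 1 row in a table of 56748 genes. The table held read counts for 24 RNA-sequencing libraries, 12 of neural retina and 12 of eye cup, and all 10 genes passed the filter on low counts in every comparison.

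The libraries came from 12 mice, with the neural retina and the remaining eye cup (RPE, choroid and sclera) of each mouse sequenced separately. PRDM13-OE mice carried 1 copy of a cassette at Rosa26 on the C57BL/6J background, in which the ubiquitous EF-1α promoter drove the reverse tetracycline transactivator and the TRE3G promoter drove HA-tagged human PRDM13. Their wildtype littermates carried no cassette. Mice of each genotype either drank water with 2 mg/mL doxycycline (dox) and 10% sucrose for 72 hours, starting at about 1 month of age, or were left untreated. This gave 3 mice in each of 4 groups: untreated wildtype, wildtype with dox, untreated PRDM13-OE and PRDM13-OE with dox. The transgene is systemic rather than confined to the retina, some leakiness without dox is known for this kind of system, and the human transcript was not analysed here. No sucrose is named for the untreated mice, so dox and sucrose cannot be told apart. Doxycycline also binds metal ions, which is the question behind reading zinc genes by dox as well as by genotype.

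As background, ZIP proteins (the Slc39a genes) carry zinc into the cytosol, and ZnT proteins (the Slc30a genes) carry it out of the cell or into vesicles and organelles. Metallothioneins are small cysteine-rich proteins that bind zinc and copper. When free zinc is high, the zinc-sensing factor MTF1 binds metal response elements and switches on metallothionein genes and Slc30a1, and glucocorticoids and inflammatory signals can also raise Mt1 and Mt2. The retina and the RPE are rich in zinc, and photoreceptors and the pigmented cells of the RPE both hold large stores of it.

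Total counts per library ran from 15825059 to 24908314. A list of 7 rod genes summed to 14240 to 21900 CPM (counts scaled by library size) in the retinas, but also to 897 to 14980 CPM in the eye cups, so the eye cups held retinal RNA in amounts that varied between libraries. Rpe65, the RPE isomerase, was at 436 to 3150 CPM in the eye cups and 4.25 to 26.1 CPM in the retinas. All CPM values below were scaled by TMM over the 24 libraries. In bulk tissue, fewer cells of a type and less RNA per cell cannot be told apart.

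The 3 metallothionein genes lie side by side on the plus strand of chromosome 8 of GRCm39, the build of the table: Mt3 at 94879235 to 94880774, Mt2 at 94899292 to 94900196 and Mt1 at 94905710 to 94906955. Slc39a12 (chromosome 2, 14393127 to 14499788) and Slc30a1 (chromosome 1, 191638879 to 191645359) are also on the plus strand. The table places Slc39a8 on chromosome 3 at 135531040 to 135594333 (plus), Slc39a10 on chromosome 1 at 46846704 to 46932012 (minus), Slc39a14 on chromosome 14 at 70540918 to 70588874 (minus) and Slc30a3 on chromosome 5 at 31243450 to 31265581 (minus). Promoters of 300 bases (250 before and 50 after the start) were taken from RefSeq, whose table is on GRCm38.p6, and were placed on GRCm39 by an exact and unique match of the sequence. They were kept for 8 of the 10 genes, since Slc39a6 was left out of this step and none was found for Slc39a14. The promoters of Mt1, Mt2 and Slc30a1 are printed because these genes are textbook MTF1 targets, and that of Mt3 as their neighbour in the cluster. That of Slc39a12 is printed because the gene differed most between the tissues among the 5 importers of the 10 genes. Capitals mark metal response element cores, searched as TGCACNC and TGCGCNC on both strands, so a core on the reverse strand reads GNGTGCA or GNGCGCA.
Mt1 (chr8:94905467-94905766, plus strand): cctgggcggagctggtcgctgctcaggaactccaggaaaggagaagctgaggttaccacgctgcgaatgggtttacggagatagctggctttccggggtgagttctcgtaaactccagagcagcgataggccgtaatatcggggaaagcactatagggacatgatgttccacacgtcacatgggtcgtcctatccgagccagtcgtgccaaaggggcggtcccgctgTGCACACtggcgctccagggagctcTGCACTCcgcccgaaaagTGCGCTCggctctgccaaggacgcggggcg
Mt2 (chr8:94898996-94899295, plus strand): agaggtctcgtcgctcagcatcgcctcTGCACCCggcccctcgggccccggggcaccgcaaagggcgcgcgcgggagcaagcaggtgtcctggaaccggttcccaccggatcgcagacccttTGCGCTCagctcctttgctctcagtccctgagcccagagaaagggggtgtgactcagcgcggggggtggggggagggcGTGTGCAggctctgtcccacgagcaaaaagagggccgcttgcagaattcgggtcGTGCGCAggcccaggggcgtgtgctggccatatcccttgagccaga
Mt3 (chr8:94878985-94879284, plus strand): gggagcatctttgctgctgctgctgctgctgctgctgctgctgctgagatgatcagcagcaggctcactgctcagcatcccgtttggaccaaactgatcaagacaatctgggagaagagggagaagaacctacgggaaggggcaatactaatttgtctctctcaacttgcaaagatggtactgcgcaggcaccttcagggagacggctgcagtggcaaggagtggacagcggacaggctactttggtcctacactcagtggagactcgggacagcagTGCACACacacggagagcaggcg
Slc30a1 (chr1:191638643-191638942, plus strand): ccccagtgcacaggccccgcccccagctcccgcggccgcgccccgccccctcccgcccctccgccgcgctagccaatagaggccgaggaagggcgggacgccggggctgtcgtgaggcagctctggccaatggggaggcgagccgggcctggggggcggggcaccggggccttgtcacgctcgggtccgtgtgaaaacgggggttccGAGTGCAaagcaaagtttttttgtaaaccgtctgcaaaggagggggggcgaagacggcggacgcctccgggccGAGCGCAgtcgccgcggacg
Slc39a12 (chr2:14392959-14393258, plus strand): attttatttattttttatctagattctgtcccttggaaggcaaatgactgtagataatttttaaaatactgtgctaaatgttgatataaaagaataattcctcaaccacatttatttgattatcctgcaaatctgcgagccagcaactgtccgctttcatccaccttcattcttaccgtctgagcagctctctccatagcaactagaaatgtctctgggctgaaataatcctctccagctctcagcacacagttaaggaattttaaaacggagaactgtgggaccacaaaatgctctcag
The Mt2 window held 4 cores, the Mt1 window 3, the Slc30a1 window 2, the Mt3 window 1 and the Slc39a12 window 0. Of 32851 RefSeq promoters, 25.7% held 1 or more cores, 7.11% held 2 or more, 1.97% held 3 or more and 0.517% held 4 or more. A match is a description of the letters and not a bound site. The gene annotation lists a further Mt1 start downstream of the RefSeq one, and cores outside these windows were not searched. The coding transcripts of Mt1, Mt2 and Mt3 each had 0 other places in GRCm39 with at least 100 bases aligned at 90% identity or more, so reads of 1 metallothionein had no near-identical copy to be split with.

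The first comparison was between the tissues of untreated wildtype mice, and asked where the zinc genes are expressed. A gene was called when its adjusted p in edgeR's quasi-likelihood test was under 0.05 and its log2-fold change was above 1 or below −1. The metallothioneins, Slc39a12 and Slc39a8 were lower in the retina than in the eye cup, 5 of the 10 genes, beside 25.9% of the 21979 genes tested. Slc30a3 alone was called higher in the retina, 1 of the 10, beside 19.3% of all genes. By adjusted p alone 9 of the 10 genes differed, beside 61.5% of all genes, and Slc30a1 was the exception.

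Among the importers, Slc39a12 encodes ZIP12, a zinc importer best known from brain and neuronal outgrowth. It was at 3.42, 3.28 and 2.73 CPM in the 3 untreated wildtype retinas and at 76.0, 118 and 103 CPM in the eye cups of the same mice. The groups were far apart, with a log2-fold change (retina over eye cup) of −5.05 (SE 0.23, edgeR adjusted p = 5.12e-06). Slc39a8 encodes ZIP8, which carries manganese and iron as well as zinc. Its retina values were 3.10, 1.59 and 2.32 CPM against 34.5, 51.1 and 32.5 CPM in the eye cup, a log2-fold change of −4.14 ± 0.32 (SE) at an edgeR adjusted p of 3.52e-05. The remaining 3 importers leaned the other way by less than the fold cutoff. Slc39a14 (ZIP14, a close relative of ZIP8) was at 38.3, 41.7 and 41.2 CPM in the retina against 24.7, 18.6 and 16.5 CPM, a log2-fold change of 0.95 (edgeR adjusted p = 0.00127). Slc39a10 (ZIP10) was at 54.9, 53.2 and 59.8 CPM against 23.3, 23.5 and 34.1 CPM, a log2-fold change of 0.98 (edgeR adjusted p = 0.00229). Slc39a6 (ZIP6, the partner of ZIP10 in a heteromer) was at 75.0, 69.3 and 74.0 CPM against 45.6, 36.5 and 33.4 CPM, a log2-fold change of 0.85 (edgeR adjusted p = 0.00122). These 3 genes were higher in each retina than in any eye cup. All 3 were called when libraries were scaled by size alone, a setting that moved the median log2-fold change of all genes from −0.06 to 0.24. Slc39a10 was also called with the mouse as a replicate block (1.00), without the untreated retina 2 (1.03) or without the untreated eye cup 3 (1.24), and Slc39a6 (1.04) and Slc39a14 (1.19) without the untreated eye cup 1. Slc39a6 overlaps Elp2 on the opposite strand, which carried 30629 counts in all against 27199 for Slc39a6, and the strand used in counting is not known.

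Of the exporters, Slc30a1 encodes ZnT1, which moves zinc out across the plasma membrane. It was at 42.2, 40.3 and 38.6 CPM in the retina and 38.8, 37.1 and 34.2 CPM in the eye cup, and these groups overlapped (log2-fold change 0.07, SE 0.11, edgeR adjusted p = 0.61). Slc30a3 encodes ZnT3, which loads zinc into synaptic vesicles. It was at 7.29, 6.10 and 5.41 CPM in the retina against 2.08, 0.13 and 0.87 CPM in the eye cup, a log2-fold change of 2.51 ± 0.64 (SE) at an edgeR adjusted p of 0.0111. The eye cup values rested on 43, 2 and 18 counts. Their order followed the summed level of the 7 rod genes in the same libraries, 8561, 897 and 4744 CPM.

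Of the 10 genes, the metallothioneins differed most. Mt1 was at 60.8, 47.3 and 37.2 CPM in the retinas and at 2825, 2238 and 2501 CPM in the eye cups, which was 54.5-fold higher in the eye cup (log2-fold change −5.77, SE 0.25, edgeR adjusted p = 4.07e-06). Mt2 was at 0.41, 0.36 and 0.72 CPM against 58.6, 29.1 and 36.1 CPM, or 85.0-fold (log2-fold change −6.41, SE 0.37, edgeR adjusted p = 1.1e-05). Its retina values rested on 9, 7 and 16 counts, and it overlaps Gm45774, which had 334 counts in all. Mt3, the metallothionein best known from the brain, was at 12.3, 13.7 and 11.6 CPM against 448, 404 and 524 CPM, or 38.5-fold (log2-fold change −5.27, SE 0.17, edgeR adjusted p = 1.97e-06). None of the metallothionein values in retina came near those in eye cup. Genes of the RPE itself showed a wider gap, since 8 of them summed to 65.9 to 166 CPM in the same retinas and 30210 to 45920 CPM in the eye cups.

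**Figure D1:**
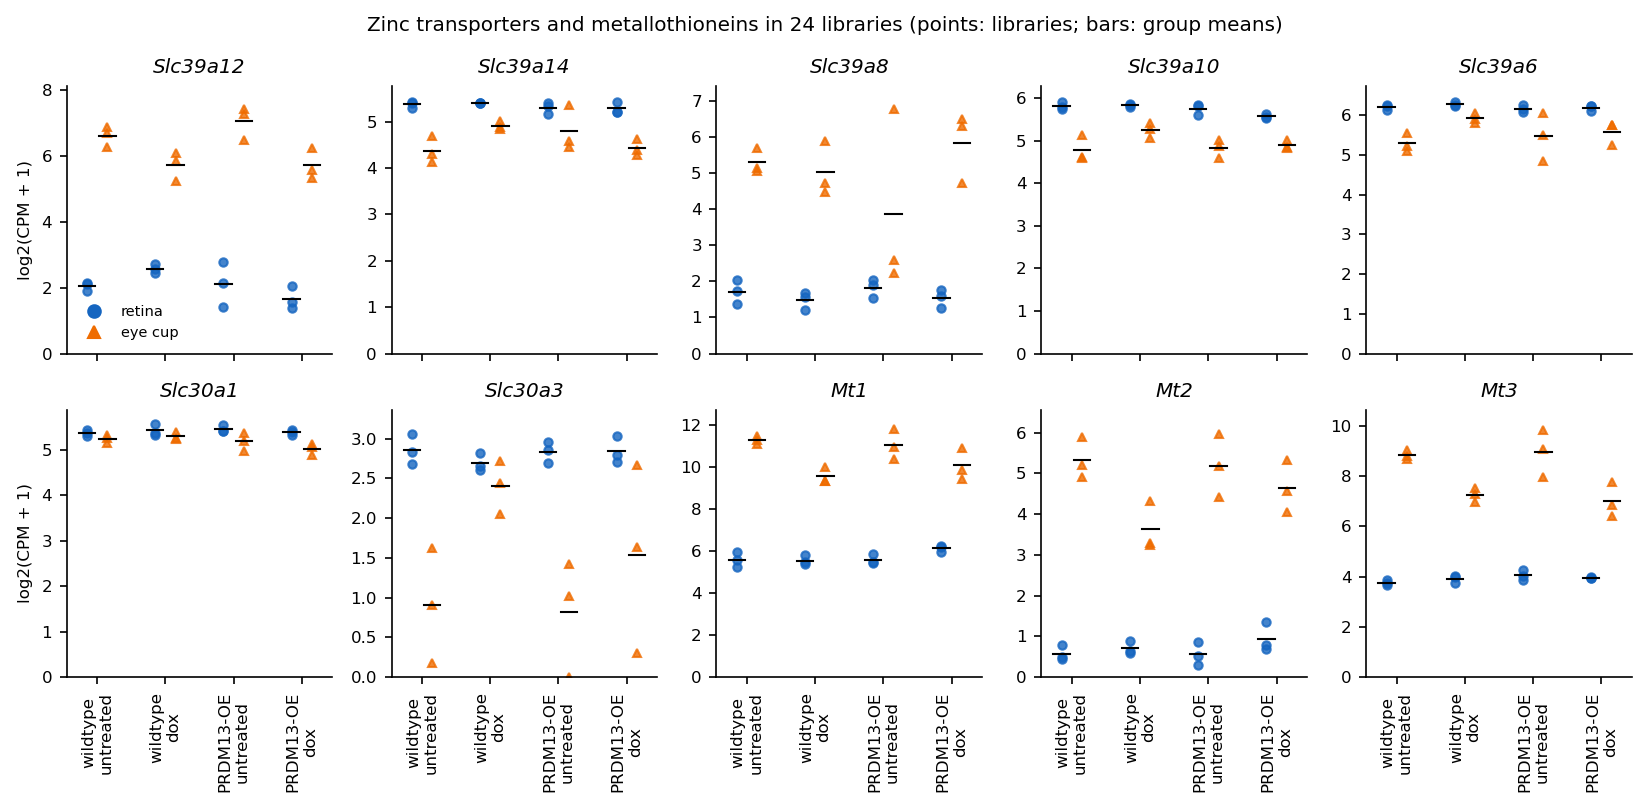
Level of each of the 10 genes, as log2(CPM + 1), in every library by genotype and treatment, with retinas as blue circles, eye cups as orange triangles and bars at group means (n = 3). Mt1, Mt2, Mt3 and Slc39a12 were higher in each eye cup than in any retina, while Slc30a1 was near the same level in both tissues.

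To compare one gene with another, levels per length were used (FPKM, fragments scaled to gene length and library total, as deposited). In untreated wildtype eye cup the order was Mt1 at 2063 ± 186 FPKM (SD, n = 3), Mt3 at 439 ± 50.6, Mt2 at 71.2 ± 25, Slc39a12 at 33.8 ± 8.08, Slc39a6 at 9.64 ± 1.45, Slc30a1 at 7.15 ± 0.495, Slc39a8 at 5.27 ± 1.54, Slc39a10 at 4.51 ± 0.989, Slc39a14 at 1.93 ± 0.383 and Slc30a3 at 0.364 ± 0.345 FPKM. In that order, Slc30a1 overlapped Slc39a8, and Slc39a8 overlapped Slc39a10. Neighbours elsewhere in the order did not overlap. In untreated wildtype retina the order was Mt1 at 38.0 ± 9.43 FPKM, Slc39a6 at 17.5 ± 0.963, Mt3 at 11.5 ± 0.830, Slc39a10 at 8.97 ± 0.630, Slc30a1 at 7.51 ± 0.358, Slc39a14 at 3.74 ± 0.141, Slc30a3 at 2.16 ± 0.339, Slc39a12 at 1.02 ± 0.117, Mt2 at 0.823 ± 0.327 and Slc39a8 at 0.299 ± 0.0996 FPKM (SD, n = 3). Only Slc39a12 and Mt2 overlapped as neighbours there. Mt1 therefore led in both tissues, Slc39a12 was the leading importer of the 5 in eye cup, and Slc39a6 led the 5 importers in retina.

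The rest of the 2 transporter families and of the metallothioneins gives the wider picture, read beside the shares of all genes called in this comparison, 19.3% higher and 25.9% lower in retina. Of 14 ZIP genes, 2 were called higher in retina and 6 lower. Of 9 ZnT genes tested, 4 were called higher and 1 lower, and all 3 tested metallothioneins were lower. The steepest ZIP difference was that of Slc39a4, the intestinal zinc importer mutated in acrodermatitis enteropathica, at a log2-fold change of −6.87 (SE 0.49). Slc39a1 (−1.62), Slc39a5 (−2.42) and Slc39a13 (−1.11) were also lower in retina, while Slc39a3 (1.38) and Slc39a7 (1.15) were higher on the same log2 scale. Among exporters, Slc30a2 (2.27), Slc30a9 (1.27) and Slc30a10 (1.61, a manganese exporter) were higher in retina and Slc30a7 (−1.54) was lower. Mtf1, the zinc sensor itself, was higher in retina (log2-fold change 1.31, SE 0.22, edgeR adjusted p = 0.00164). Genes of iron handling gave 1 higher and 4 lower of 8, with the ferritin subunits Ftl1 (−3.53) and Fth1 (−2.10) and the heme oxygenase Hmox1 (−3.09) among the lower ones and the transferrin receptor Tfrc higher (1.83). Slc30a8 had 0 counts in all 24 libraries and Mt4 had 1, and neither was tested.

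**Figure D2:**
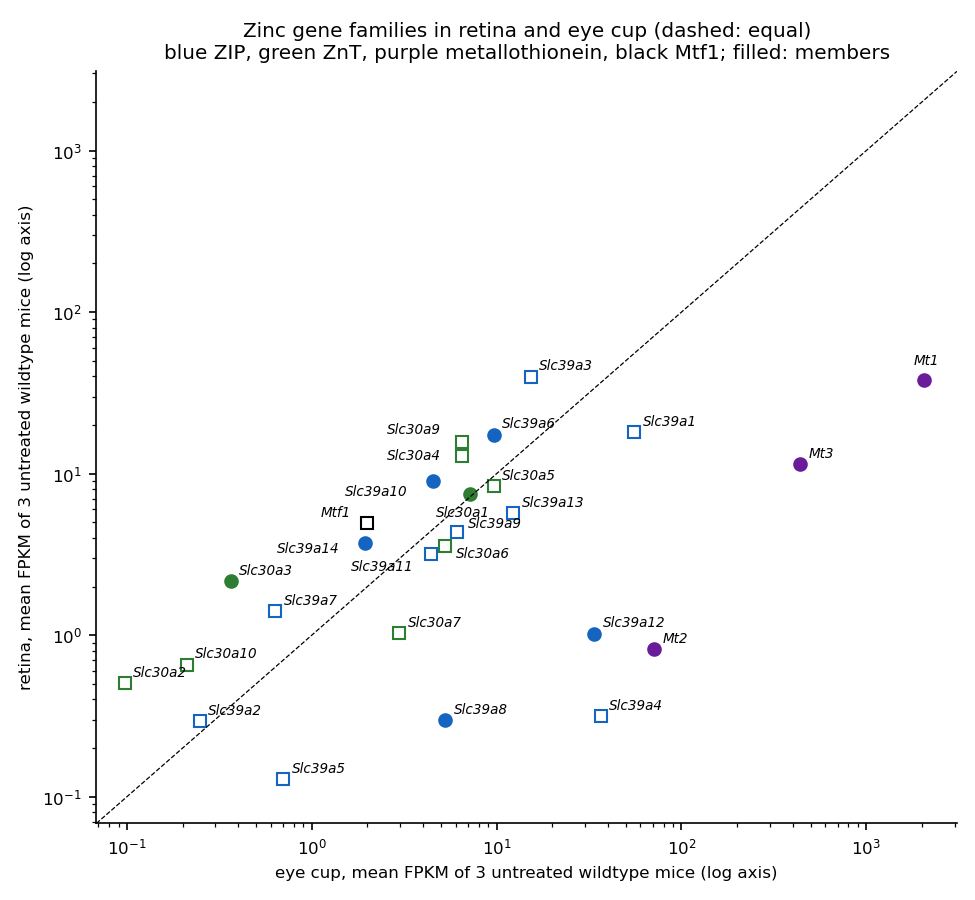
Mean FPKM of the ZIP, ZnT and metallothionein genes and Mtf1 in untreated wildtype eye cup (x axis) and retina (y axis), n = 3 each, on log axes, with the 10 genes filled and a dashed line at equal levels. Mt1, Mt3, Mt2, Slc39a12, Slc39a8 and Slc39a4 lie far below the line, and Slc30a3 lies above it.

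The next comparison was of dox with no dox in wildtype mice, where no transgene is present. In the retina edgeR called 0 of the 10 genes, beside 0.00485% of all genes, and DESeq2 called 0. At an unadjusted p under 0.05 there was 1 of the 10, beside 1922 of the 20631 genes tested. That 1 gene was Slc39a12, at 5.62, 4.43 and 4.90 CPM with dox against 3.42, 3.28 and 2.73 CPM untreated. Each dox retina was above each untreated one, but the log2-fold change of 0.66 (SE 0.18) had an edgeR adjusted p of 0.29. The ciliary margin and iris list (Otx1, Msx1, Wfdc1 and Optc) moved the same way, with summed levels of 102 to 114 CPM with dox and 33.4 to 78.2 CPM untreated. So did the sums of fibroblast genes (40.2 to 63.7 against 27.9 to 38.6 CPM, 6 of 6 at an unadjusted p under 0.05), Müller glia genes (7018 to 7193 against 6059 to 6734 CPM, 4 of 8) and microglia genes (38.6 to 44.3 against 32.3 to 37.7 CPM, 1 of 6), while the rod sum was lower with dox (19490 to 19940 against 20830 to 21900 CPM, 5 of 7). None of these 4 sums overlapped between the groups. The lens sum overlapped, at 82.7 to 9518 CPM with dox and 135 to 684 CPM untreated, with 9 of 9 tested genes at an unadjusted p under 0.05 and a median log2-fold change of 3.47. EdgeR called 0 genes of these lists, and DESeq2 called 1, of the ciliary margin and iris list. With the ciliary margin sum as covariate, added after seeing the data, the log2-fold change of Slc39a12 was 0.31, with RPE 0.42 and with crystallin 0.53 (edgeR adjusted p = 0.78, 0.66 and 0.79). The part of the fibroblast, Müller glia, microglia and rod levels was not tested. Mt1 was at 54.5, 43.5 and 40.4 CPM with dox against 60.8, 47.3 and 37.2 CPM untreated, and the groups overlapped (log2-fold change −0.07, SE 0.16, edgeR adjusted p = 0.93). Mt3 (12.5, 14.6 and 15.4 against 12.3, 13.7 and 11.6 CPM) and Slc30a1 (46.4, 39.0 and 40.4 against 42.2, 40.3 and 38.6 CPM) also overlapped. Mt2 had 16, 10 and 10 counts with dox and 9, 7 and 16 untreated, so only a large change could have been seen.

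In the eye cup the metallothioneins of wildtype mice were at a lower level with dox in each library, but no gene of the table was called there. Mt1 was at 649, 659 and 1032 CPM with dox against 2825, 2238 and 2501 CPM untreated, a log2-fold change of −1.77 ± 0.24 (SE) at an edgeR adjusted p of 0.067. Mt2 was at 8.52, 8.86 and 19.1 CPM against 58.6, 29.1 and 36.1 CPM, a log2-fold change of −1.84 ± 0.38 (SE) at an edgeR adjusted p of 0.067. Mt3 was at 125, 156 and 184 CPM against 448, 404 and 524 CPM, a log2-fold change of −1.65 ± 0.19 (SE) at an edgeR adjusted p of 0.067. For each of these 3 genes the highest dox library was below the lowest untreated one. Slc39a12 was at 37.0, 67.5 and 56.7 CPM against 76.0, 118 and 103 CPM, also without overlap, a log2-fold change of −0.96 ± 0.26 (SE) at an edgeR adjusted p of 0.077. Slc30a3 was on the higher side with dox, at 5.58, 4.43 and 3.14 CPM against 2.08, 0.13 and 0.87 CPM (log2-fold change 1.99, SE 0.71, edgeR adjusted p = 0.12). Slc39a6 was at 65.6, 59.3 and 54.7 CPM against 45.6, 36.5 and 33.4 CPM (log2-fold change 0.56, edgeR adjusted p = 0.083), and Slc39a14 at 28.4, 31.2 and 27.6 CPM against 24.7, 18.6 and 16.5 CPM (0.47, edgeR adjusted p = 0.13). Slc30a1, Slc39a8 and Slc39a10 overlapped between the groups.

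In counts, edgeR called 0 of the 10 genes in this comparison, beside 0% of all genes. At an unadjusted p under 0.05 there were 7 of the 10, beside 29.9% of all genes, and DESeq2 called 4 of the 10 (Mt1, Mt2, Mt3 and Slc30a3), beside 9.03%. Without the untreated library 1 edgeR called 5 (Mt1, Mt2, Mt3, Slc39a12 and Slc30a3), and without the dox library 3 it called the 3 metallothioneins. The make-up of the eye cups moved with the same contrast. The summed level of the 8 RPE genes was 9880, 11570 and 21700 CPM with dox and 30210, 37200 and 45920 CPM untreated, with a median log2-fold change of −1.37 over the 8. The summed level of the 7 rod genes was 14980, 11770 and 8233 CPM with dox and 8561, 897 and 4744 CPM untreated, and these groups overlapped. The summed level of the 8 Müller glia genes was 9457 to 10280 CPM with dox and 10500 to 15310 CPM untreated, though the median log2-fold change over the 8 was 0.19. Microglia genes summed to 157 to 214 CPM against 296 to 373 CPM, with 3 of 6 at an unadjusted p under 0.05. Endothelial sums overlapped (329 to 374 against 346 to 521 CPM), but 6 of 6 genes were at an unadjusted p under 0.05, with a median log2-fold change of −0.91. Blood (254 to 631 against 524 to 3797 CPM, median log2-fold change −1.93), fibroblast (1283 to 2403 against 2216 to 2354 CPM, median −0.60) and ciliary margin and iris sums (253 to 382 against 339 to 1263 CPM, median −0.77) overlapped, with 3 of 5, 3 of 6 and 1 of 4 genes at an unadjusted p under 0.05. Surface epithelium sums were 6057, 6694 and 12590 CPM with dox against 11410 to 13210 CPM untreated and overlapped too (median −0.53, 2 of 6 at an unadjusted p under 0.05, 0 called by edgeR). EdgeR called 0 genes of the 8 lists before it, and DESeq2 called 5 RPE, 2 rod, 3 Müller glia, 2 microglia, 2 endothelial, 1 blood, 0 fibroblast and 1 ciliary margin gene. No gene of the RPE or rod list was at 0 in all libraries of a group.

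When all 12 eye cups were fitted with the summed RPE level as a covariate, an alternative chosen after seeing the data, the dox log2-fold change was −0.51 for Mt1, −0.66 for Mt2, −0.31 for Mt3 and −0.09 for Slc39a12, each with an edgeR adjusted p of 1. For Slc30a3 the direction turned, to −0.75, with the RPE level, and with the rod level alone it was 0.42 (edgeR adjusted p = 0.93). With the rod level as covariate, Mt1 was at −1.40, Mt3 at −1.28 and Slc39a12 at −0.46 (edgeR adjusted p = 0.74, 0.74 and 0.77). By library, Mt3 and the RPE sum had the same order within 3 of the 4 groups of eye cups, and untreated wildtype was the exception. The Müller glia list summed to 8166 to 16670 CPM in the eye cups, above its 6059 to 7193 CPM in the retinas. In eye cups its sum therefore cannot be read as Müller glia alone. Over the 12 eye cups, Pearson r of log2(CPM + 1) with the RPE sum was 0.914 for Mt1, 0.948 for Mt3 and 0.863 for Slc39a12. With the sum of the Müller glia list it was 0.822, 0.903 and 0.884. These points share groups and dissections, and the part of Müller glia, microglia, endothelium, blood, fibroblasts, ciliary margin and surface epithelium in the values of the zinc genes was not tested.

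**Figure D3:**
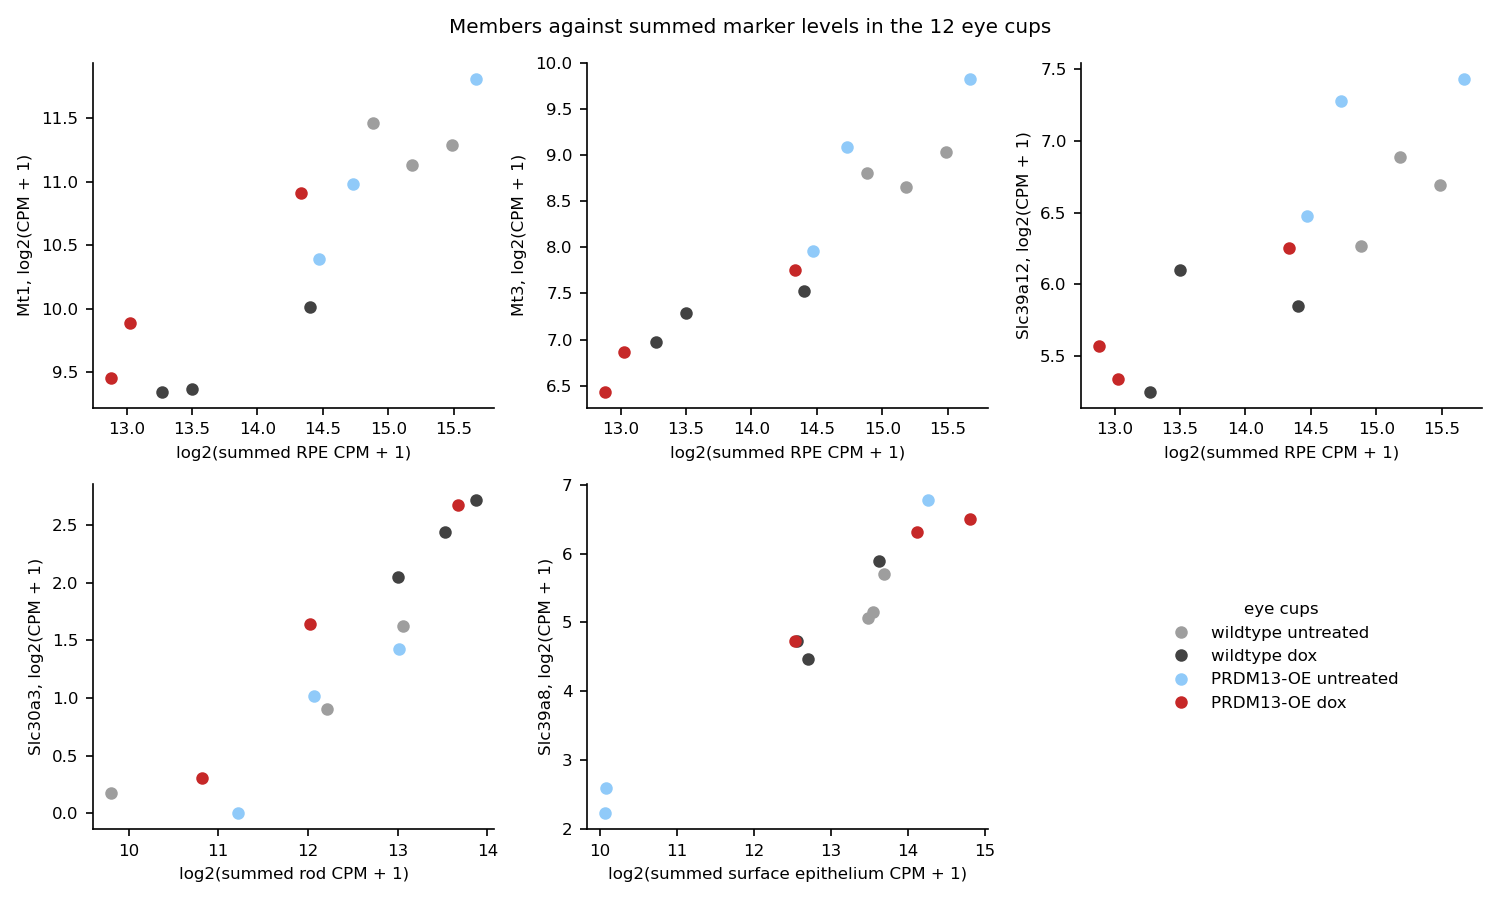
Levels of 5 genes, as log2(CPM + 1), against the summed level of a marker list in the 12 eye cups, colored by group: RPE genes for Mt1, Mt3 and Slc39a12, rod genes for Slc30a3 and surface epithelium genes for Slc39a8. In each panel higher levels of the gene go with higher marker sums, and the wildtype dox eye cups (black), with RPE sums of 9880 to 21700 CPM, lie left of the untreated wildtype ones (grey), while for rods 2 of the 3 lie right of all of them.

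The dox effect in wildtype mice was then compared between the tissues, retina minus eye cup, in 1 fit. Slc39a12 differed by 1.54 on the log2 scale (SE 0.32, edgeR adjusted p = 0.0279), Mt1 by 1.63 (SE 0.31, edgeR adjusted p = 0.0249) and Mt3 by 1.75 (SE 0.22, edgeR adjusted p = 0.0144). These 3 of the 10 genes were called higher, beside 1.21% of all genes, and 0 were called lower, beside 3.30%. DESeq2 called 5 of the 10, beside 8.86% of all genes, and 8 of the 10 were at an unadjusted p under 0.05, beside 28.9%. Mt2 (2.11, edgeR adjusted p = 0.064) and Slc30a3 (−2.22, edgeR adjusted p = 0.066) missed the threshold. With the mouse as a replicate block, since both tissues came from the same mouse, Mt1 (edgeR adjusted p = 0.0485) and Mt3 (edgeR adjusted p = 0.0485) kept their call and Slc39a12 lost it (edgeR adjusted p = 0.052). The count was 0 to 5 when each of the 12 libraries was left out in turn. It was 0 without the wildtype dox retina 1 or 2, the wildtype dox eye cup 2 or the untreated wildtype retina 1 or 3, 1 without the dox eye cup 1, the untreated retina 2 or the untreated eye cup 3, and 5 without the dox eye cup 3 or the untreated eye cup 2. The 8 RPE genes moved with this contrast too, at a median of 1.50 on the log2 scale (0 called by edgeR, 5 by DESeq2, 6 at an unadjusted p under 0.05). Of markers of other cell types, edgeR called higher 2 of 8 Müller glia genes (median of the 8 −0.13), 2 of 6 fibroblast genes (median 1.30), 1 of 4 ciliary margin and iris genes (median 1.60), 1 of 6 endothelial genes (median 0.93, 6 of 6 at an unadjusted p under 0.05) and 1 of 6 microglia genes (median 0.64). Of the rod, lens, blood and surface epithelium genes edgeR called 0, with 3, 1, 1 and 2 at an unadjusted p under 0.05 and, for rod, lens and blood, 0, 1 and 0 by DESeq2. The part of these cell types in the 3 calls was not tested. Among the glucocorticoid, acute-phase, iron and zinc lists, Ftl1, a ferritin subunit, was called (1.17, edgeR adjusted p = 0.0335), and Osmr (0.91, 0.0457), Klf9 (−0.56, 0.0455) and Slc39a3 (−0.81, 0.0350) passed by adjusted p alone.

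In PRDM13-OE eye cups the same reading was less even. Mt3 was at 85.3, 215 and 115 CPM with dox against 248, 543 and 910 CPM untreated, without overlap (log2-fold change −2.04, SE 0.60, edgeR adjusted p = 0.97). Slc39a12 was at 46.6, 75.3 and 39.5 CPM against 87.9, 154 and 172 CPM, also without overlap (log2-fold change −1.36, SE 0.39, edgeR adjusted p = 0.97). Mt1 was at 700, 1922 and 946 CPM against 1339, 2020 and 3598 CPM and overlapped (log2-fold change −0.97, SE 0.58, edgeR adjusted p = 0.97). Mt2 overlapped as well, at 15.5, 39.1 and 22.5 CPM against 20.5, 35.3 and 61.7 CPM. By edgeR 0 of the 10 genes were called, beside 0.0139% of all genes, and 0 by DESeq2. At an unadjusted p under 0.05 there were 2 (Slc39a12 and Mt3), beside 894 of the 21604 genes tested. The dox library with the highest Mt1, Mt2 and Mt3, number 2, was also the one with the highest RPE sum, at 20670 CPM against 7560 and 8354 CPM. The untreated library with the highest Mt1, number 3, had an RPE sum of 52120 CPM against 22660 and 27180 CPM. Blood genes fell in this comparison, from sums of 611 to 1164 CPM untreated to 12.9 to 15.9 CPM with dox (median log2-fold change −6.14), and 3 of the 5 were called lower, which were the 3 genes called in the whole table. No gene of another marker list was called by edgeR, and DESeq2 called 5 blood genes and 1 RPE gene.

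Between genotypes, the eye cups gave no call. In PRDM13-OE with dox against wildtype with dox, edgeR called 0 of the 10 genes, beside 0.0184% of all genes, and DESeq2 called 0. At an unadjusted p under 0.05 there was 1 of the 10, beside 1792 of the 21758 genes tested. That 1 was Mt2, at 15.5, 39.1 and 22.5 CPM in PRDM13-OE against 8.52, 8.86 and 19.1 CPM, which overlapped (log2-fold change 1.17, SE 0.44, edgeR adjusted p = 0.60). Blood genes summed to 12.9 to 15.9 CPM against 254 to 631 CPM in wildtype with dox, and 3 of the 5 were called lower (4 by DESeq2, median log2-fold change −5.10), out of 4 genes called in the whole table. Lens sums were 13.9 to 348 against 582 to 2775 CPM, with 0 of 9 tested genes called by edgeR, 1 by DESeq2 and 6 at an unadjusted p under 0.05 (median log2-fold change −3.27). The part of blood and lens RNA in the values of the zinc genes of the eye cup was not tested. Untreated PRDM13-OE and untreated wildtype eye cups gave 0 of 10 by edgeR, beside 0% of all genes, 0 by DESeq2 and 0 at an unadjusted p under 0.05. The test of whether dox acted differently by genotype in the eye cup gave 0 of 10 by edgeR, beside 0% of all genes, and 0 by DESeq2. At an unadjusted p under 0.05 it gave 1 (Slc39a14, −0.88, edgeR adjusted p = 0.75), beside 1526 of the 23837 genes tested. These comparisons and the dox comparisons above share groups of mice, so they are not separate evidence.

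**Figure D4:**
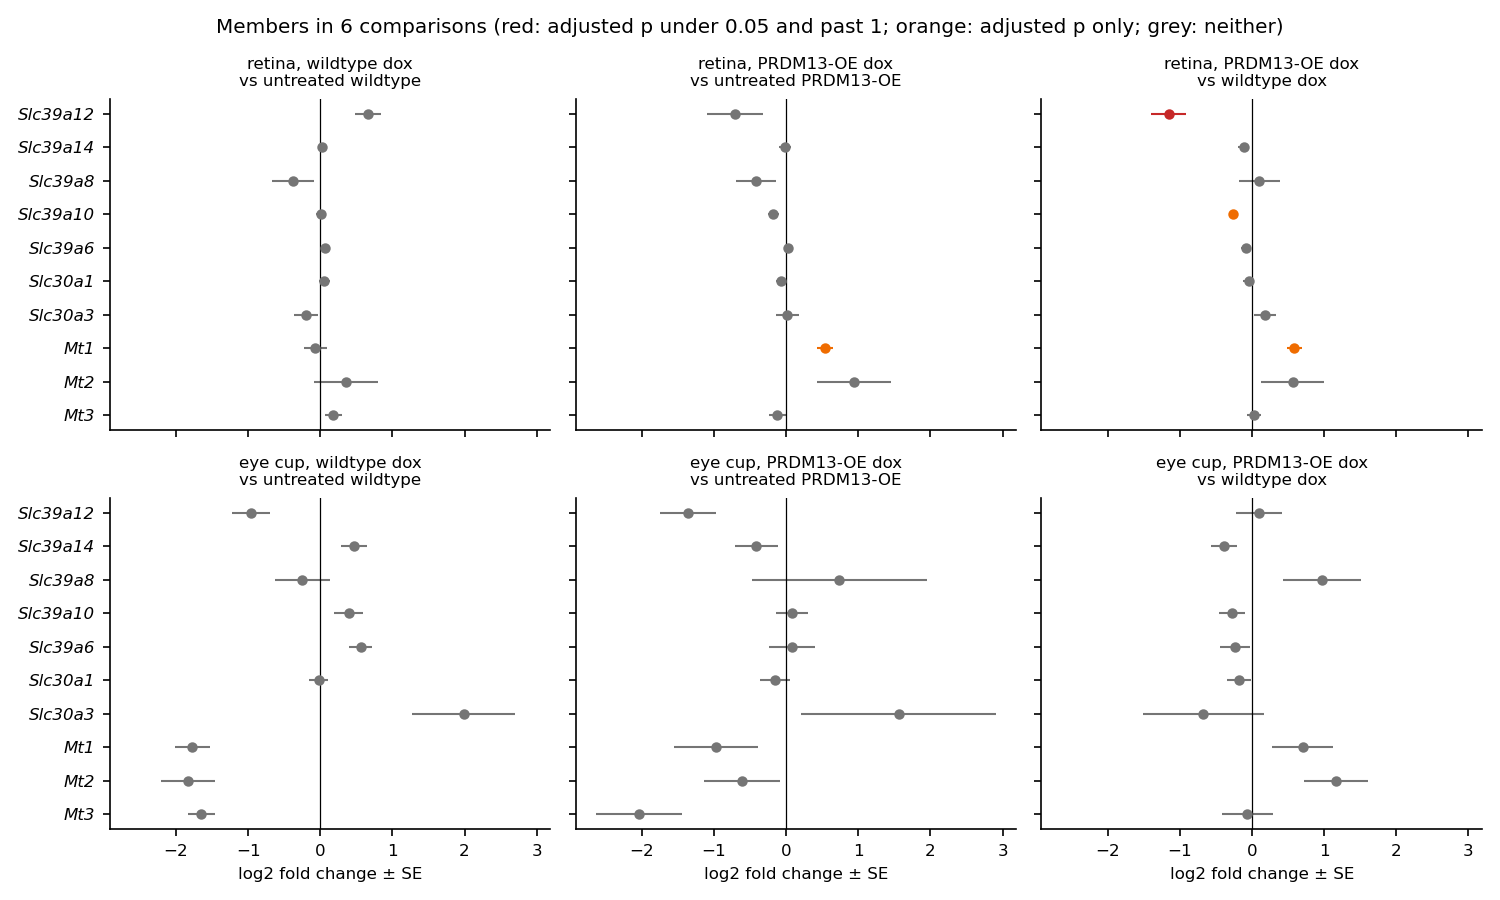
Log2-fold change with its standard error for each of the 10 genes in 6 comparisons, retinas above and eye cups below, from edgeR (3 mice a group). Slc39a12 (red) is called in the retina of PRDM13-OE mice with dox against wildtype with dox, Mt1 and Slc39a10 (orange) pass by adjusted p only, and none of the eye cup points passes.

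In the neural retina, PRDM13-OE mice with dox were compared with wildtype mice with dox, the contrast in which the transgene is on and both groups drank dox. Slc39a12 fell and was the 1 gene of 10 called lower, beside 1.50% of the 20560 genes tested, while 0 were called higher, beside 0.905%. By adjusted p alone 3 of the 10 differed, beside 12.5% of all genes: Slc39a12 and Slc39a10 lower and Mt1 higher. DESeq2 also called 1. The wildtype dox retinas are the same 3 libraries as in the dox comparison above. The median log2-fold change over the 10 genes was −0.01, against 0.01 over all genes.

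Slc39a12 was at 1.60, 1.95 and 3.12 CPM in PRDM13-OE with dox (29, 38 and 62 counts) and at 5.62, 4.43 and 4.90 CPM in wildtype with dox (104, 88 and 88 counts). Each PRDM13-OE retina was below each wildtype retina, and the gene fell 2.22-fold (log2-fold change −1.15, SE 0.24, edgeR adjusted p = 0.00836). Untreated wildtype retinas were at 3.42, 3.28 and 2.73 CPM, each below each wildtype dox retina, and untreated PRDM13-OE retinas spanned 1.64 to 5.90 CPM. Against untreated PRDM13-OE, the dox group overlapped (log2-fold change −0.70, SE 0.39, edgeR adjusted p = 0.44). Without PRDM13-OE dox library 1 the log2-fold change against wildtype was −0.98, which missed the fold cutoff.

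Markers of tissue next to the retina moved with Slc39a12. The ciliary margin and iris list summed to 8.01, 49.3 and 60.3 CPM in PRDM13-OE with dox and 102 to 114 CPM in wildtype with dox, and 2 of its 4 genes were called lower (median log2-fold change −1.61). The library with the lowest sum was also the one with the lowest Slc39a12 in both PRDM13-OE groups. The RPE list summed to 97.6 to 116 CPM against 156 to 180 CPM, with 1 of 8 genes called lower and 4 lower by adjusted p. Fits with these sums as covariates, added after seeing the data, gave Slc39a12 log2-fold changes of −0.53 (ciliary margin, edgeR adjusted p = 0.36) and −0.82 (RPE, edgeR adjusted p = 0.064). Sums of the lens list, which is mostly crystallins, ran from 82.7 to 9518 CPM in wildtype with dox and 3.58 to 22.1 CPM in PRDM13-OE with dox. With crystallin as covariate Slc39a12 was at −0.75 (edgeR adjusted p = 0.58), and the call was lost in each of these 3 covariate fits, while the direction stayed. The 2 retinas with most crystallin were both of wildtype mice with dox. Leaving them out kept 1 library of that group, assumed to vary like the other groups, and there Slc39a12 was at −1.13, near its value with all libraries, at an edgeR adjusted p of 0.25.

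Other marker lists in this contrast were as follows. The rod sum was 14240 to 16390 CPM in PRDM13-OE with dox against 19490 to 19940 CPM, with 5 of 7 genes lower by adjusted p. The 5 blood genes (globins and Alas2) summed to 0.66 to 1.11 CPM against 29.3 to 73.0 CPM, all 5 were called lower, and 1 of them was at 0 in every PRDM13-OE dox retina. The endothelial sum was 137 to 163 CPM against 297 to 315 CPM, with 1 of 6 called lower. Of 8 Müller glia genes 5 were lower and 2 higher by adjusted p, with sums of 6543 to 6893 against 7018 to 7193 CPM and none past the fold cutoff. Fibroblast (0 of 6, 29.1 to 46.8 against 40.2 to 63.7 CPM), microglia (0 of 6, 45.3 to 47.4 against 38.6 to 44.3 CPM) and surface epithelium genes (0 of 4 tested) gave no call by edgeR, with 0, 1 and 0 at an unadjusted p under 0.05 and 0 fibroblast or microglia genes by DESeq2. The lens list had 9 of 9 tested genes lower. The part of blood, endothelial and rod RNA in the values of the zinc genes was not tested.

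Mt1 rose in the same contrast, by less than the fold cutoff. It was at 72.7, 60.5 and 74.6 CPM in PRDM13-OE with dox and at 54.5, 43.5 and 40.4 CPM in wildtype with dox, so the groups did not overlap (1.50-fold, log2-fold change 0.58, SE 0.11, edgeR adjusted p = 0.00365). Untreated wildtype retinas were at 60.8, 47.3 and 37.2 CPM and untreated PRDM13-OE retinas at 56.7, 42.2 and 43.9 CPM, and 1 untreated wildtype retina lay at the level of the lowest PRDM13-OE dox retina. Against untreated PRDM13-OE, Mt1 rose by a log2-fold change of 0.54 ± 0.11 (SE) at an edgeR adjusted p of 0.0103. It was higher with dox in all 3 PRDM13-OE mice than in any of the 3 untreated ones. Without dox library 1 or 3 the edgeR adjusted p was 0.061 or 0.070. In that comparison Mt1 was the 1 gene of 10 that passed by adjusted p, beside 5.00% of all genes. With the fold cutoff 0 were called, beside 1.04%, and 0 by DESeq2. At an unadjusted p under 0.05 there were 2 of the 10, beside 3216 of the 20603 genes tested. Marker genes moved there too. Blood sums were 0.66 to 1.11 CPM with dox against 26.6 to 60.9 CPM untreated, with 5 of 5 genes called lower. Rod sums were 14240 to 16390 against 19920 to 21290 CPM, with 5 of 7 genes lower by adjusted p. Of 6 endothelial genes 1 was called lower and of 9 tested lens genes 1, and of 8 Müller glia genes 2 were higher and 2 lower by adjusted p. Microglia sums were 45.3 to 47.4 against 36.2 to 43.3 CPM, without overlap. Of these 6 genes 0 were called and 3 were at an unadjusted p under 0.05, with a median log2-fold change of 0.505. The part of these cells in the rise of Mt1 against untreated PRDM13-OE was not tested. With the RPE sum as covariate, which was lower in PRDM13-OE with dox than in wildtype with dox, Mt1 was at 0.73 (edgeR adjusted p = 0.0013). Over the 12 retinas, with the same shared groups, Pearson r of Mt1 was 0.22 with the RPE sum and −0.691 with the rod sum. It was −0.201 with the ciliary margin and iris sum and 0.052 with the Müller glia sum. The part of rod RNA in the rise of Mt1 was not tested. With ciliary margin as covariate Mt1 was at 0.67 (edgeR adjusted p = 0.034), with crystallin at 0.95 (edgeR adjusted p = 0.044), and without the 2 crystallin-rich retinas, with 1 wildtype dox library left, at 0.77 (edgeR adjusted p = 0.065).

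**Figure D5:**
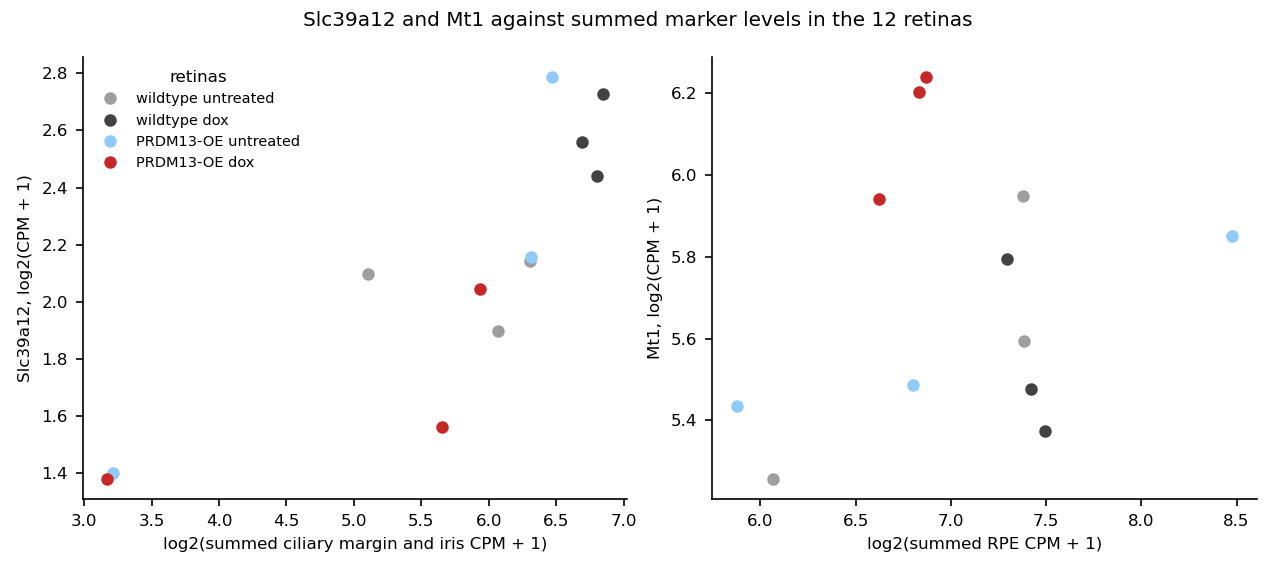
Slc39a12 against the summed ciliary margin and iris level (left) and Mt1 against the summed RPE level (right) in the 12 retinas, all as log2(CPM + 1), colored by group. Slc39a12 runs with the ciliary margin sum, whereas the 3 retinas of PRDM13-OE mice with dox (red) have the top Mt1 levels but for 1 untreated wildtype retina at the level of the lowest, at middling RPE sums.

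The other metallothioneins did not pass. Mt2, with 28, 14 and 12 counts in PRDM13-OE with dox against 16, 10 and 10 in wildtype with dox, had a log2-fold change of 0.56 ± 0.43 (SE) at an edgeR adjusted p of 0.46, close in size to that of Mt1 but with a larger error. Mt3 was at 14.4, 14.4 and 14.6 CPM against 12.5, 14.6 and 15.4 CPM, a log2-fold change of 0.03 ± 0.10 (SE) at an edgeR adjusted p of 0.90. Mtf1 was at a log2-fold change of −0.13 ± 0.08 (SE) at an edgeR adjusted p of 0.32, and Slc30a1, which MTF1 also drives, was at 42.4, 40.5 and 38.9 CPM against 46.4, 39.0 and 40.4 CPM (log2-fold change −0.05, SE 0.07, edgeR adjusted p = 0.74).

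Genes that respond to signals known to raise Mt1 were read in the same retinas, where 12.5% of all genes passed by adjusted p in the first contrast and 5.00% against untreated PRDM13-OE. Of 8 glucocorticoid-responsive genes, Sgk1 (log2-fold change 0.55, edgeR adjusted p = 0.0297) and Klf9 (0.23, edgeR adjusted p = 0.0412) were higher by adjusted p and none was called with the fold cutoff (0 by edgeR, 0 by DESeq2, 2 at an unadjusted p under 0.05). Of 8 acute-phase and gliosis genes, Lcn2, the siderophore-binding lipocalin, was higher by adjusted p (0.92, edgeR adjusted p = 0.0175), and against untreated PRDM13-OE it was called (1.09, edgeR adjusted p = 0.0109), with Sgk1 at 0.65 (edgeR adjusted p = 0.0102). Of 8 iron and heme genes 0 passed by edgeR in either comparison, with 2 and 1 at an unadjusted p under 0.05 and 0 by DESeq2. These lists were chosen with earlier results of these data known.

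Slc39a10 was the other importer to pass by adjusted p. It was at 46.3, 48.8 and 45.5 CPM in PRDM13-OE with dox against 56.8, 54.9 and 57.1 CPM in wildtype with dox and fell by 0.26 on the log2 scale (SE 0.06, edgeR adjusted p = 0.0100), 1.20-fold, without overlap. Untreated wildtype retinas were at 54.9, 53.2 and 59.8 CPM and untreated PRDM13-OE at 56.5, 55.2 and 48.1 CPM. Over the 12 retinas Pearson r of Slc39a10 was 0.76 with the rod sum, which was also lower in this contrast. It was 0.356 with the ciliary margin and iris sum, 0.224 with Müller glia and 0.171 with RPE. The part of rod RNA in the fall of Slc39a10 was not tested. Slc39a14, Slc39a8, Slc39a6 and Slc30a3 overlapped between PRDM13-OE and wildtype with dox, at log2-fold changes of −0.12, 0.10, −0.09 and 0.18 (edgeR adjusted p = 0.34, 0.87, 0.40 and 0.50). In the wider families, beside 1.50% of all genes called lower, 1 of 14 ZIP genes was called lower (Slc39a12) and 1 of 9 ZnT genes, Slc30a2 (log2-fold change −1.56, SE 0.36, edgeR adjusted p = 0.0155). The call on Slc30a2 was lost without PRDM13-OE dox library 2 (−1.63) or 3 (−1.45), without wildtype dox library 2 (−1.18), with crystallin (−0.56) or ciliary margin (−1.46) as covariate, and without the 2 crystallin-rich retinas (−0.82, 1 wildtype dox library left). Slc39a10 missed the threshold with crystallin (log2-fold change −0.31, edgeR adjusted p = 0.22) or ciliary margin (−0.27, 0.083) as covariate, without the 2 crystallin-rich retinas (−0.29, 0.17, 1 wildtype dox library left) and with scaling by library size (−0.17, 0.065). Only in the last of these was its fold change smaller than with all libraries and TMM scaling.

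Whether dox acted differently by genotype was tested in all 12 retinas. EdgeR called 0 of the 10 genes, beside 0.870% of all genes, and DESeq2 called 0. At an unadjusted p under 0.05 there were 2 of the 10, beside 3247 of the 22538 genes tested. Those were Slc39a12, with a difference of dox effects of −1.36 (SE 0.47, edgeR adjusted p = 0.16), and Mt1, at 0.62 (SE 0.21, edgeR adjusted p = 0.16). Mt1 passed by adjusted p in 4 of 22 alternatives: without untreated wildtype library 3 (0.78, edgeR adjusted p = 0.0432), with the replicate block (0.62, edgeR adjusted p = 0.0368), with the RPE covariate (0.78, edgeR adjusted p = 0.0195) and with no filter on low counts (0.62, edgeR adjusted p = 2.29e-06). Over the other alternatives its adjusted p was 0.070 to 0.39. Without untreated PRDM13-OE library 2, whose Slc39a12 was the lowest of its group at 1.64 CPM, Slc39a12 was called (−1.72, edgeR adjusted p = 0.0149). With no filter on low counts Slc39a12 was called as well. In that fit the log2 values of Mt1 (0.62) and Slc39a12 (−1.36) were those of the main fit. Only their adjusted p moved, so it shows no larger difference, and the reason was not tested. Untreated PRDM13-OE and untreated wildtype retinas gave 0 of 10 by edgeR, beside 0% of all genes, and 0 by DESeq2. At an unadjusted p under 0.05 they gave 1 (Mt3, log2-fold change 0.34, SE 0.13, edgeR adjusted p = 0.99), beside 778 of the 20668 genes tested.

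Spread between mice differed widely between the genes. Over the 12 retinas, Slc39a6 ran from 67.0 to 79.9 CPM, Slc30a1 from 38.6 to 46.4 CPM, Slc39a14 from 35.0 to 42.1 CPM and Slc30a3 from 5.08 to 7.29 CPM. Over the 12 eye cups Slc30a1 kept a narrow range, from 28.7 to 40.7 CPM, while Slc39a8 ran from 3.68 to 109 CPM. The Slc39a8 extremes were all untreated PRDM13-OE eye cups, at 109, 5.05 and 3.68 CPM. A list of 6 surface epithelium genes (Krt5, Krt12, Krt14, Krt15, Trp63 and Cldn4), written after the Slc39a8 values were seen, summed to 19660, 1087 and 1078 CPM in the same 3 libraries and to 5913 to 28600 CPM in the other eye cups. In retinas the list summed to 0.55 to 6.44 CPM and Slc39a8 was at 1.31 to 3.12 CPM. Without the first of those libraries, Slc39a8 was called lower in untreated PRDM13-OE than in untreated wildtype eye cups (log2-fold change −3.19, edgeR adjusted p = 0.00963), and with it the log2-fold change was −0.08 (SE 1.15). Slc30a3 had 0 counts in 1 untreated PRDM13-OE eye cup, number 3, which allows up to 0.187 CPM (3 counts, counting error only), and 2 and 4 counts in 2 others. The 3 eye cups with the fewest Slc30a3 counts were the 3 with the lowest rod sums, 897, 1806 and 2391 CPM. The part of surface epithelium in the Slc39a8 values was not tested.

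The genes most like Slc39a12 and Mt1 across libraries were listed by Pearson r of log2(CPM + 1) over 12 libraries of a tissue. In retina, among 14720 genes with a mean of at least 1 CPM, Slc39a12 was nearest to Slc22a8 (r = 0.965), Bace2 (0.961), Slc6a13 (0.940), Bmp2 (0.939) and Ergic3 (0.927). Mt1 was nearest to Egr1 (r = 0.916), Lcn2 (0.906), Rnf144b (0.905), Zfp444 (0.892) and Cyp2d22 (0.886). Over the 12 eye cups and 15814 genes, Slc39a12 was nearest to Sema3b (r = 0.984), Sox9 (0.959), Tmem47 (0.953), Clcn2 (0.952) and Lrp1 (0.952), and Mt1 was also close to Gm13589 (0.974), Rsph9 (0.974), Rilp (0.970) and D8Ertd738e (0.969). The 12 points share 4 treatment groups, the make-up of each dissection and the depth of each library, so these values describe the libraries only. No gene was named for both tissues.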

How the data were processed

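PolyA RNA of 24 libraries (12 mice, both sexes, neural retina and eye cup of each) was sequenced. The authors deposited 1 table of raw read counts per gene and library with FPKM values that they computed from them. The submitters' processing notes name CASAVA, HISAT2 and GRCm39 (mm39), while the counting tool, the annotation release and the strand setting are not given in the sources used here. Columns of the authors' 12 comparisons (fold changes, p-values, normalised means) were not used, and 0 per-sample columns were left out.

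Counts were tested with edgeR 4.0.16 (R 4.3.3, quasi-likelihood test) on the libraries of each comparison, with TMM scaling and genes of at least 10 summed counts, and with limma 3.58.1 loaded by edgeR. A call needed a Benjamini-Hochberg adjusted p under 0.05 together with an absolute log2-fold change over 1. DESeq2 1.42.0, scaling by library size, no filter, filterByExpr, robust fitting, a replicate block, all libraries of a tissue in 1 fit, marker covariates and each library left out were alternatives. The ciliary margin and RPE covariates were added after seeing the data, and covariate fits used all 12 libraries of a tissue. Levels are CPM scaled by TMM over 24 libraries. The scripts were tested on simulated data. Python 3.11.15, numpy 2.4.6, pandas 2.3.3, scipy 1.17.1 and matplotlib 3.10.9 were used.

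Groups came from the labels, with 3 separate mice each, and p-values measure the spread between mice. By their titles, retina and eye cup with the same number came from the same mouse. In untreated wildtype mice their deviations from group means correlated at r = 0.108, 0.132 and 0.108. Same-numbered libraries of different mice spanned −0.55 to 0.656, so these r values do not show the pairing, which rests on the titles. Total counts of 15825059 to 24908314 set the precision, which is low for genes with few counts (Mt2 in retina, 4 to 28 counts).

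The genes named are the 10 genes, other ZIP, ZnT and metallothionein genes that were called, Mtf1, called genes of the glucocorticoid, acute-phase and gliosis, and iron and heme lists, and the 5 genes most like Slc39a12 and Mt1 per tissue (mean of at least 1 CPM, pseudocount 1). Marker lists covered rods, Müller glia, RPE, ciliary margin and iris, lens, endothelium, fibroblasts, blood and microglia. The members and lists were chosen with earlier results of these data known, and the surface epithelium list after the Slc39a8 values were seen. Protein sequences were not used here. The rod list was used with 7 genes and the surface epithelium list with 6, each without 1 gene of the list first chosen, and 1 gene among those most like Mt1 in eye cup is not reported here.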

Additional observations from a re-analysis of the deposited data

Results flagged for a closer look

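For 4 zinc genes a test of whether the difference between wildtype mice with and without dox was the same in retina and eye cup passed its threshold (edgeR, retina minus eye cup, log2 scale). It was 1.54 for Slc39a12, 1.63 for Mt1 and 1.75 for Mt3, each with a lower level under dox in the eye cup. It was −0.81 for Slc39a3, an importer, which passed by adjusted p alone (0.0350). Retina and eye cup came from the same mice, and with the mouse as a replicate block Slc39a12 (edgeR adjusted p = 0.052) and Slc39a3 (0.059) no longer passed, while Mt1 and Mt3 (both 0.0485) did. When each of 12 libraries was left out in turn, the test no longer passed in 9 of 12 fits for Slc39a12, 8 for Mt1, 5 for Mt3 and 9 for Slc39a3, and the direction stayed in each. The RPE sum was 30210 to 45920 CPM in the untreated and 9880 to 21700 CPM in the dox eye cups of these mice, and its part in these values was read only through the covariate fits within eye cups.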

How the results depend on the processing

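Over 27 single-gene results and 424 alternatives, 339 kept direction and side of the threshold, 51 fell short of a threshold passed before, 32 passed one missed before and 2 reversed. The threshold was the call, with its fold cutoff, for results that were called, and the adjusted p alone for the others. The reversals were both Slc30a3 in eye cups of wildtype mice with dox, at −0.75 with the RPE covariate and −0.45 with rod and RPE covariates (log2 scale). Numbers below are of the 10 genes called, and the causes of the shifts were not tested. In the retina, PRDM13-OE with dox against wildtype with dox gave 1, which became 3 by adjusted p alone and 0 with the crystallin, ciliary margin or RPE covariate, 0 without the 2 retinas with most crystallin, which left 1 wildtype dox library, and 0 to 1 when 1 library was left out. PRDM13-OE with dox against untreated PRDM13-OE gave 0, and 1 by adjusted p alone. The genotype by dox interaction in retina gave 0, then 1 with no filter and 0 to 1 with 1 library left out. In the eye cup, wildtype with dox against untreated gave 0, then 4 by DESeq2, 3 with library size scaling, 3 with no filter and 0 to 5 with 1 library left out. The untreated genotypes in eye cup gave 0, then 0 to 1. The difference of the dox effect between tissues gave 3, then 5 by DESeq2, 5 with library size scaling, 5 with no filter and 0 to 5 with 1 library left out.

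Over all genes, scaling by library size moved the calls from 186 higher and 309 lower to 279 and 269 (retina, PRDM13-OE with dox against wildtype with dox), from 86 and 128 to 104 and 109 (retina, PRDM13-OE with dox against untreated), from 80 and 116 to 101 and 99 (retina interaction), from 4238 and 5687 to 5540 and 4869 (tissues), from 0 and 0 to 658 and 98 (eye cup, wildtype dox) and from 287 and 785 to 294 and 1544 (difference of dox effects). DESeq2 gave 1371 and 597 for the eye cup with dox and 870 and 1239 for the difference, where the median log2 value of all genes moved from −0.13 to 0.01. Library size scaling moved that median from −0.05 to 0.13 in the eye cups of wildtype mice with dox and from 0.05 to 0.17 in those of PRDM13-OE mice with dox against untreated.

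With a replicate block, the difference of dox effects gave 2 calls, since Slc39a12 lost its call, and the tissue comparison 7 against 6. In comparisons within a tissue the mice share only a number, with r from −0.55 to 0.656, and there the block moved no count, while Mt1 in the retina interaction passed by adjusted p (0.62, edgeR adjusted p = 0.0368). Depth limits Mt2 in retina and Slc30a3 in eye cup, whose single values rest on as few as 4 and 0 counts.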

Other observations

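Lcn2, the lipocalin that binds bacterial iron chelators, stood next to Mt1 in the retina both in likeness (r = 0.906) and in direction. In the eye cup of PRDM13-OE mice, Lcn2 with dox differed from untreated by 2.04 on the log2 scale (SE 0.54, edgeR adjusted p = 0.97), and the difference was 1.30 (SE 0.54, edgeR adjusted p = 0.60) from wildtype with dox, neither of which passed. The retina interaction for Lcn2 was 1.19 (SE 0.35, edgeR adjusted p = 0.089). Between tissues of untreated wildtype mice, where 25.9% of all genes were called lower and 19.3% higher in retina, acute-phase and gliosis genes gave 5 of 8 lower, with Serpina3n at −4.70, Gfap at −3.78, Osmr at −3.56, C4b at −3.16 and Socs3 at −1.34 on the log2 scale. Glucocorticoid-responsive genes gave 3 lower (Sgk1 −1.97, Tsc22d3 −1.48 and Pdk4 −2.62) and 1 higher (Klf9 1.00) of 8, shares near those of all genes.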
